A study of Mus musculus with 12 samples.

Results

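The genes described here are 70 synaptic vesicle and SNARE genes of the mouse, taken by gene symbol from the 51912 genes of the deposited expression tables. The symbols taken were those of the numbered synaptotagmins (Syt), synapsins (Syn), complexins (Cplx), VAMPs, syntaxins (Stx), syntaxin-binding proteins (Stxbp), SV2 proteins (Sv2), RIMs (Rims) and UNC13 proteins, with Snap23, Snap25, Snap29, Snap47 and Snap91. Of the 70 genes, 67 passed a filter on low counts that left 23453 genes in the table. Cplx4, Stx19 and Syt8 did not pass, with 0 to 11 counts per library, and Stxbp3-ps is a pseudogene whose reads cannot be told apart with certainty from those of Stxbp3. Total RNA was measured in the striatum at 10.5 weeks of age, in 12 libraries in 4 groups of 3. R6/2-T mice carry the HDexon1 transgene, the first exon of human huntingtin with an expanded CAG repeat (R6/2, B6CBA-Tg(HDexon1)62Gpb/3J), and were given an adeno-associated virus (AAV) with an shRNA against TRAX. R6/2-C mice carry the same transgene and were given an AAV with a control shRNA. WT-T and WT-C mice are the B6CBAFI/J strain without the transgene, given the TRAX shRNA and the control shRNA. All 4 groups thus had a surgical injection of virus into both striata, at 5 weeks of age, and no group was left uninjected. The promoter that drives the shRNA, the cells the virus reached and whether each library is a separate animal are not stated in the sources, so p-values measure the spread between these libraries.

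Neurotransmitter is released when a synaptic vesicle fuses with the plasma membrane. Fusion is driven by SNARE proteins, a VAMP on the vesicle that zips together with a syntaxin and a SNAP on the plasma membrane. UNC13 and RIM proteins make docked vesicles ready for fusion, complexins hold and then help the assembled SNAREs, synaptotagmins sense the calcium that triggers fusion, and synapsins and SV2 proteins sit on the vesicle itself. Other syntaxins, VAMPs and STXBP proteins serve traffic through the Golgi, endosomes and the plasma membrane in all cells. The striatum holds mostly inhibitory medium spiny neurons, whose own terminals lie partly outside it, and much of what its vesicles release comes from cortical and thalamic axons whose RNA lies elsewhere.

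The deposited StringTie counts summed to 131783370 to 229332386 per library, and the 70 genes took 0.933% to 1.09% of them. These sums are not sequencing depth, since the scaled Cuffdiff fragments of the same libraries summed to 40027098 to 47479639, and read numbers per library were not stated. Tsnax had 44.7, 39.99 and 47.03 CPM in R6/2-T and 197, 168 and 189 CPM in R6/2-C, against 32.9, 27.6 and 33.6 CPM in WT-T and 151, 152 and 167 CPM in WT-C, so the target of the shRNA was lower in every T library than in any C library. None of the cell type markers checked was at 0 in its mean over the 12 libraries. The summed FPKM of 10 medium spiny neuron markers ranged from 1021 to 1102 in R6/2-T and 1432 to 1648 in R6/2-C, against 2718 to 3148 in WT-T and 2686 to 3177 in WT-C. That of 6 general neuronal markers ranged from 575 to 596 in R6/2-T and 565 to 694 in R6/2-C, against 531 to 710 in WT-T and 610.5 to 664 in WT-C. The summed levels of astrocyte and oligodendrocyte markers were lower in every R6/2 library than in every WT library. The 8 astrocyte markers, of which 6 were called lower in R6/2-C and 4 in R6/2-T, summed to 679 to 693 FPKM in R6/2-T and 579.9 to 775 in R6/2-C, against 886 to 1213 in WT-T and 1081 to 1239 in WT-C. The 8 oligodendrocyte markers, of which 5 were called lower in R6/2-C and 6 in R6/2-T, summed to 1392 to 1460.4 FPKM in R6/2-T and 1427 to 1864 in R6/2-C, against 1964 to 2765 in WT-T and 2131 to 3077 in WT-C. The part of these markers in the genotype results below was not tested. In RNA from whole tissue, fewer cells of a type and less RNA per cell cannot be told apart, which touches every genotype comparison here. The library R6/2-C 2 stood apart from its group in choroid plexus markers. Its 5 choroid plexus markers summed to 1221 FPKM, against 78.4 and 111 FPKM in the other R6/2-C libraries, and the range was 646 to 1180 FPKM in R6/2-T, 92.6 to 800.1 in WT-T and 89.3 to 220 in WT-C. WT-T 1 likewise had 800.1 FPKM, against 303 and 92.6 in the other WT-T libraries. Log counts of all genes correlated at 0.970 to 0.971 between R6/2-C libraries and at 0.962 to 0.980 between WT-T libraries. By that measure R6/2-C 2 did not stand apart.

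The most abundant of these genes in WT-C striatum belonged to the fusion machinery itself. Per gene length, Snap25, the plasma membrane SNARE of neurons, led with 551 ± 23.97 FPKM, followed by Cplx2 with 296 ± 14.9, Vamp2 with 210.3 ± 2.44, Cplx1 with 172 ± 21.3 and Syt1 with 139 ± 11.04 FPKM (mean ± SD, n = 3). Members of a family could differ widely in level, as did Vamp2 and Vamp1, the second neuronal vesicle SNARE, which had 20.04 ± 7.04 FPKM. Family medians of the WT-C means are given here without the neuronal release SNAREs. They were 86.4 FPKM for the complexins, 37.1 FPKM for the synapsins and SV2 genes and 12.3 FPKM for the synaptotagmins. The 4 complexins ran from 0.0001 to 296 FPKM, so that their median describes no single member. The syntaxins outside neuronal release had a median of 8.37 FPKM and the remaining VAMPs of 7.35 FPKM.

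**Figure D1:**
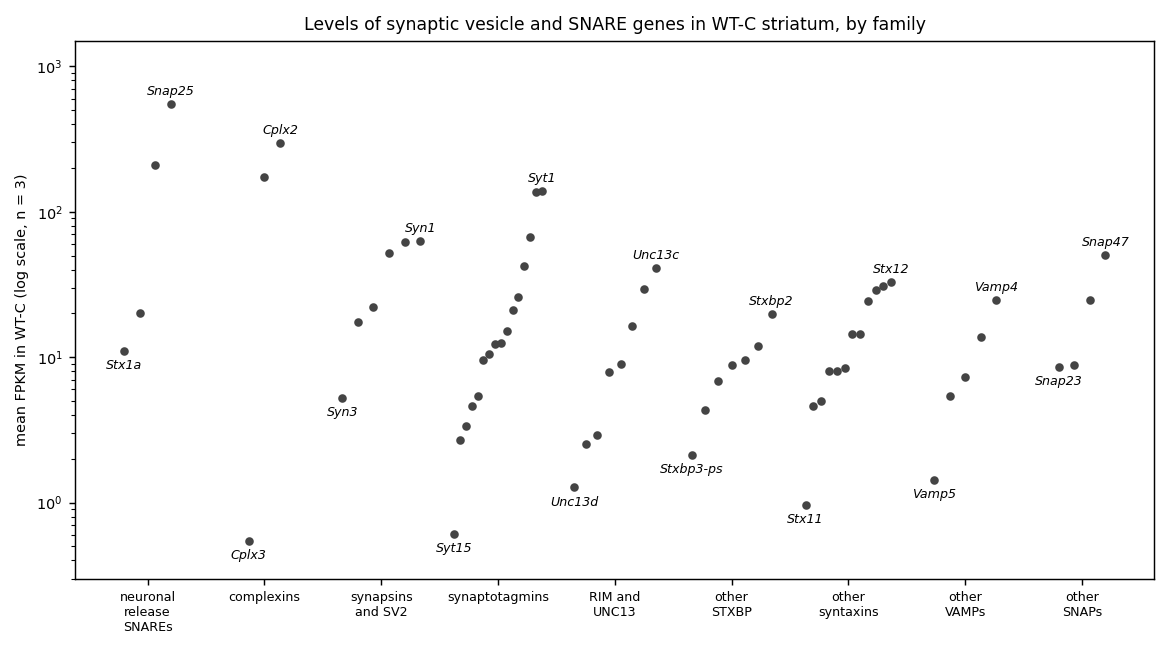
Mean FPKM (log scale) of each gene in the 3 WT-C libraries, with 1 point per gene shown, grouped by family; the highest and the lowest gene of each family are named. Snap25 stands at 551 FPKM, while the highest of the other syntaxins, Stx12, stands at 32.6 FPKM.

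Between genotypes, a minority of the genes changed, in both directions. In R6/2-C against WT-C, 11 of 67 genes (16.4%) passed the test, against 9.09% of all genes tested. Of these, 5 were higher in R6/2-C (Snap47, Stx12, Stx7, Stxbp5 and Syt4), against 4.87% of all genes, and 6 were lower (Stx3, Syt12, Syt2, Syt9, Unc13a and Vamp1), against 4.22%. In R6/2-T against WT-T, 21 genes (31.3%) passed, against 22.6% of all genes tested. There, 10 were higher in R6/2-T (Stx12, Stx6, Stx7, Stxbp4, Stxbp5, Sv2a, Syt14, Syt4, Unc13b and Vamp7), against 11.5% of all genes, and 11 were lower (Cplx2, Cplx3, Stx11, Stx4a, Stxbp2, Syn2, Syt12, Syt2, Syt7, Unc13a and Unc13d), against 11.1%. The median log2 change of the 67 genes was -0.07 in R6/2-C over WT-C, beside -0.02 over all genes tested, and 0.02 in R6/2-T over WT-T, beside -0.05. Genes were called at an adjusted p under 0.05 in edgeR's quasi-likelihood test, with Benjamini-Hochberg adjustment over the 23453 genes.

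How many genes were called turned on single libraries. In R6/2-C against WT-C, 4 were called without R6/2-C 1, 2 without R6/2-C 3, 3 without WT-C 1, and 7 without WT-C 2 or without WT-C 3. Over all genes, the 2131 calls fell as well, to 876, 803, 898, 921 and 872 in the same order. Without R6/2-C 2, 16 of the 67 were called, against 9.29% of all genes. In R6/2-T against WT-T, 7 were called without R6/2-T 1 and 12 without R6/2-T 3. There the 5304 calls over all genes fell to 2760 and 3149. A fit of the R6/2-C and WT-C libraries alone called 2, beside 454 over all genes. DESeq2 called 19 in R6/2-C against WT-C, against 14.3% of all genes it tested, and 24 in R6/2-T against WT-T, against 26.9%. Each call below is therefore given with the number of 21 other analyses in which it held. These were 9 other settings or tools and 12 fits that left out 1 library each.

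The genotype comparisons, which share no library, overlapped in 7 genes. Syt4, Stx12, Stx7 and Stxbp5 were higher and Syt12, Unc13a and Syt2 were lower in R6/2 under either virus, and no gene was called in opposite directions. The 7 genes are 10.4% of the 67, against 6.16% of all genes called in both comparisons in the same direction (3.43% higher, 2.72% lower, and 0.0128% in opposite directions). They make up 63.6% of the first list of calls and 33.3% of the second. Over all genes, 1444 were called in both in the same direction, out of 2131 calls in the first comparison and 5304 in the second. Log2 changes had the same sign in both comparisons for 56 of the 67 genes. The same share over all genes was not worked out, so this count cannot be read as particular to these genes.

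**Figure D2:**
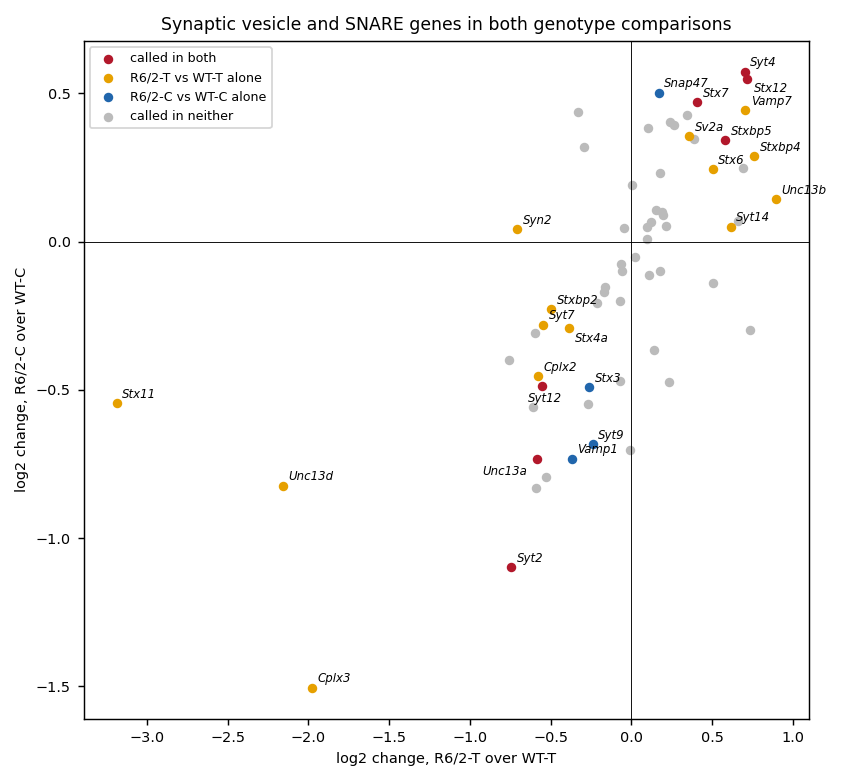
Log2 change of 65 genes in R6/2-T over WT-T (horizontal axis) and in R6/2-C over WT-C (vertical axis), coloured by the comparison in which the gene was called. The 4 genes called higher in both lie at the upper right, and the 3 called lower in both lie at the lower left between -0.55 and -0.74 on the horizontal axis.

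Of the genes higher in both comparisons, Syt4 is a synaptotagmin of dense-core vesicles, and Stx12 and Stx7 are syntaxins of endosomes. Syt4 had 309, 288 and 289 CPM in R6/2-T and 296, 258 and 275 CPM in R6/2-C, against 147, 192 and 205 CPM in WT-T and 185, 199 and 172 CPM in WT-C. All 6 R6/2 libraries lay above all 6 WT libraries, and within each genotype the T and C libraries overlapped. Its log2 change was 0.57 ± 0.12 in R6/2-C over WT-C (adjusted p = 0.0173) and 0.70 ± 0.12 in R6/2-T over WT-T (adjusted p = 0.00255). The first call held in 17 of 21 alternatives (adjusted p up to 0.0664), not without R6/2-C 1, R6/2-C 3, WT-C 1 or WT-C 3, and the second in 21 of 21 alternatives (adjusted p up to 0.0169).

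Stx12 had 161, 146 and 145 CPM in R6/2-T and 165, 133 and 153 CPM in R6/2-C, against 87.7, 92.9 and 95.1 CPM in WT-T and 106, 103 and 99.8 CPM in WT-C. Again the 6 R6/2 libraries were all above the 6 WT libraries, and the lowest of them was R6/2-C 2. Stx12 changed by 0.55 ± 0.09 in R6/2-C over WT-C (adjusted p = 0.00624) and 0.71 ± 0.09 in R6/2-T over WT-T (adjusted p = 0.000649) on the log2 scale, calls that held in 20 of 21 alternatives (adjusted p up to 0.0569) and in 21 of 21 alternatives (adjusted p up to 0.00596). Stx7 had 138, 138 and 135 CPM in R6/2-T and 152, 144 and 151 CPM in R6/2-C, against 107, 104 and 98.96 CPM in WT-T and 113, 107 and 102 CPM in WT-C. The genotypes did not overlap, and R6/2-C libraries were above R6/2-T libraries. Stx7 changed by 0.47 ± 0.07 in R6/2-C over WT-C (adjusted p = 0.00415) and 0.41 ± 0.07 in R6/2-T over WT-T (adjusted p = 0.00302) on the log2 scale, and the calls held in 20 of 21 alternatives (adjusted p up to 0.0534) and in 21 of 21 alternatives (adjusted p up to 0.0211).

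Stxbp5 (tomosyn) binds syntaxin and Snap25 in place of VAMP and so limits SNARE assembly. Stxbp5 had 127, 124 and 113 CPM in R6/2-T and 87.2, 94.4 and 88.2 CPM in R6/2-C, against 71.98, 81.9 and 89.1 CPM in WT-T and 76.1, 69.9 and 66.8 CPM in WT-C. The R6/2-T libraries were the highest of all, and 1 WT-T library lay above the lowest 2 of R6/2-C. Stxbp5 changed by 0.34 ± 0.10 in R6/2-C over WT-C (adjusted p = 0.0472) and 0.58 ± 0.10 in R6/2-T over WT-T (adjusted p = 0.00202) on the log2 scale. The first call held in 5 of 21 alternatives (adjusted p up to 0.152), not without R6/2-T 1, R6/2-T 2, R6/2-T 3, R6/2-C 1, R6/2-C 2, R6/2-C 3, WT-T 2, WT-C 1, WT-C 2 or WT-C 3, and the second in 21 of 21 alternatives (adjusted p up to 0.0151).

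Of the 3 genes lower in both comparisons, Unc13a encodes the main priming factor of forebrain synapses. Unc13a had 154, 159 and 158 CPM in R6/2-T and 169.8, 180.4 and 154 CPM in R6/2-C, against 181, 231 and 295 CPM in WT-T and 272, 299.8 and 265 CPM in WT-C. The 6 R6/2 libraries lay below every WT library, and the WT-T libraries were the most widely spread. Unc13a changed by -0.73 ± 0.15 in R6/2-C over WT-C (adjusted p = 0.014) and -0.59 ± 0.15 in R6/2-T over WT-T (adjusted p = 0.0155) on the log2 scale. The calls held in 20 of 21 alternatives (adjusted p up to 0.0563), not without R6/2-C 3, and in 19 of 21 alternatives (adjusted p up to 0.0606), not without R6/2-T 1 or R6/2-T 3.

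Syt2 is a fast calcium sensor close to Syt1 that is known from hindbrain neurons and fast-spiking interneurons. Syt2 had 37.5, 43.9 and 32.7 CPM in R6/2-T and 34.5, 39.1 and 33.9 CPM in R6/2-C, against 49.3, 59.5 and 82.2 CPM in WT-T and 98.7, 76.8 and 54.8 CPM in WT-C. No R6/2 library reached a WT library, and the WT libraries varied by more than the R6/2 libraries in both arms. Syt2 changed by -1.10 ± 0.22 in R6/2-C over WT-C (adjusted p = 0.0152) and -0.74 ± 0.22 in R6/2-T over WT-T (adjusted p = 0.0334) on the log2 scale, the largest fall among the 7 genes, and the calls held in 16 of 21 alternatives (adjusted p up to 0.113), not without R6/2-C 1, R6/2-C 3 or WT-C 1, and in 14 of 21 alternatives (adjusted p up to 0.204), not without R6/2-T 1, R6/2-T 3, WT-T 2 or WT-T 3. The summed FPKM of 8 interneuron markers, of which 3 and 4 were called lower in R6/2, ranged from 203 to 233 in R6/2-T and 228 to 306 in R6/2-C, against 309 to 328 in WT-T and 252 to 309 in WT-C, and their part in the Syt2 result was not tested. Syt12 had 27.6, 27.3 and 24.5 CPM in R6/2-T and 27.7, 26.1 and 25.2 CPM in R6/2-C, against 32.8, 39.8 and 43.9 CPM in WT-T and 36.2, 37.1 and 37.4 CPM in WT-C. Syt12 is a synaptotagmin of synaptic vesicles that does not bind calcium, and its R6/2 libraries were all below its WT libraries. Syt12 changed by -0.49 ± 0.11 in R6/2-C over WT-C (adjusted p = 0.0203) and -0.55 ± 0.11 in R6/2-T over WT-T (adjusted p = 0.00479) on the log2 scale, with calls that held in 16 of 21 alternatives (adjusted p up to 0.075), not without R6/2-C 3, WT-C 1, WT-C 2 or WT-C 3, and in 21 of 21 alternatives (adjusted p up to 0.0296).

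**Figure D3:**
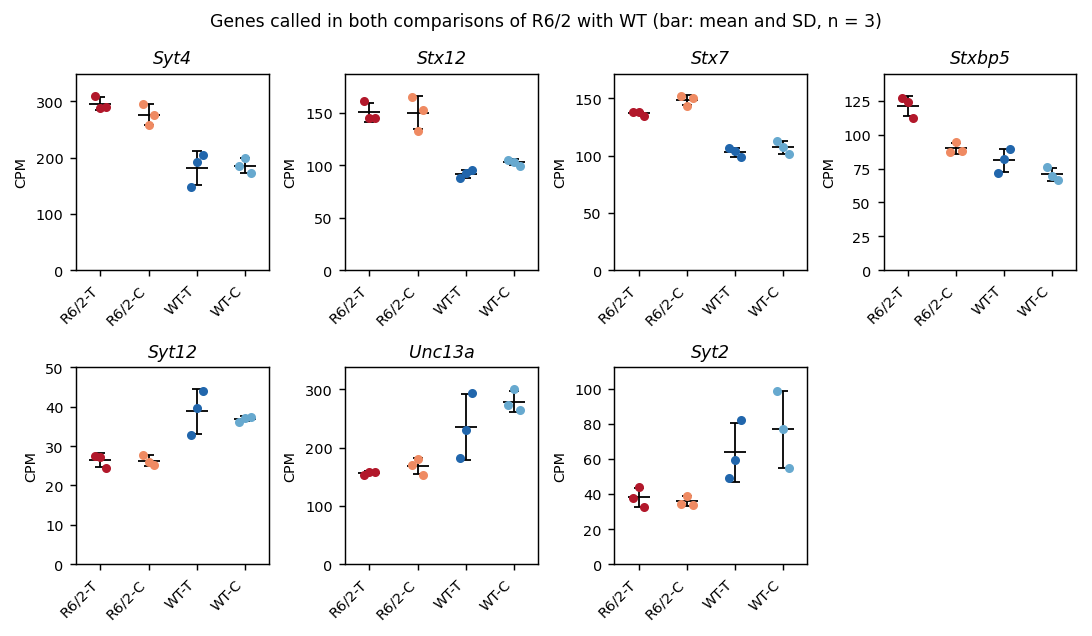
CPM of the 7 genes called in both comparisons, 1 point per library, with the mean and SD of each group of 3. For Syt4, Stx12 and Stx7 all R6/2 points lie above all WT points, and for Syt12, Unc13a and Syt2 all lie below.

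Promoter sequences are shown for the genes called in both comparisons, since these moved together under either virus. RefSeq promoter windows on GRCm38.p6, from 250 bases before the annotated start to 50 after it, were at hand for 52 of the 70 genes and are printed for 5 of the 7. Syt12 and Syt4 are named only. Each window is given 5′ to 3′ on the strand of its gene, and capitals mark matches on either strand to the GC box GGGCGG, the cAMP response element core TGACG, the left part of the RE1 repressor element CAGCACC, or the EGR site GCGTGGGCG. The windows are chr4:132884409-132884708 (minus strand) for Stx12, chr10:24149039-24149338 (plus strand) for Stx7, chr10:9900991-9901290 (minus strand) for Stxbp5, chr1:134646362-134646661 (plus strand) for Syt2 and chr8:71671708-71672007 (minus strand) for Unc13a.
Stx12: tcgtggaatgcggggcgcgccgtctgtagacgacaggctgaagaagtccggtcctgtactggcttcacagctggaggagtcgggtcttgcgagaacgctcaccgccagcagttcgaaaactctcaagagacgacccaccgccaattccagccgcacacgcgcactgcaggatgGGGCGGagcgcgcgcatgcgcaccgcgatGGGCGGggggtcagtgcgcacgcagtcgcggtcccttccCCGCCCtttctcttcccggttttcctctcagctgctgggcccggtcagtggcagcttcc
Stx7: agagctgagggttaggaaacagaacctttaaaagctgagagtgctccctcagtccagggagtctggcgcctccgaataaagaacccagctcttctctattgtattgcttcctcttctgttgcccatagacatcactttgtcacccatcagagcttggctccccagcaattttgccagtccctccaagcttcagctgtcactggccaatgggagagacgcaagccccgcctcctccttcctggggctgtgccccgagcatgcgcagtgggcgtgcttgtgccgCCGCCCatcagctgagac
Stxbp5: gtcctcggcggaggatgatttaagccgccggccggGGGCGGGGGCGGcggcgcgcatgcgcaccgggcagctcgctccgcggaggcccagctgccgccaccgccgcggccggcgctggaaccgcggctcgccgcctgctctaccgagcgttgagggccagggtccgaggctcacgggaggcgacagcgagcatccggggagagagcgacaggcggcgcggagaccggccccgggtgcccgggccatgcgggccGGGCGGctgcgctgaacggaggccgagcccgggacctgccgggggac
Syt2: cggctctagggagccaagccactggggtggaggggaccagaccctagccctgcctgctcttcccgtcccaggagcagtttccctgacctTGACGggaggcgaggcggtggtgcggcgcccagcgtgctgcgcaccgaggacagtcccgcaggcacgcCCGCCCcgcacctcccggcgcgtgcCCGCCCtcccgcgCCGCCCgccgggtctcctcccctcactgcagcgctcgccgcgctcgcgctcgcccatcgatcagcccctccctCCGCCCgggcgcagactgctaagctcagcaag
Unc13a: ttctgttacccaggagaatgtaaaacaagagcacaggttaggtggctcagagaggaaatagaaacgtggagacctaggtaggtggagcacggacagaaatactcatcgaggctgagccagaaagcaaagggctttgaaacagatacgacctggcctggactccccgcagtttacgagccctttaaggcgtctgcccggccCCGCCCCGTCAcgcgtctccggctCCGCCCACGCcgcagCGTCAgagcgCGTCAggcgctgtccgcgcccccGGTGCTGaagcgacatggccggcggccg

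Among the genes that were higher in R6/2, the Stx12 and Stxbp5 windows each held 3 GC boxes, of which 2 in Stxbp5 adjoin each other, and the Stx7 window held 1. None of these 3 windows held any of the other motifs. Among the genes that were lower, the Syt2 window held 4 GC boxes and 1 cAMP response core. The Unc13a window held 2 GC boxes, 3 cAMP response cores, 1 RE1 part and 1 EGR site, which overlaps the second GC box. The first cAMP response core there adjoins the first GC box. A GC box was found in 35.7% of the 32851 RefSeq promoter windows, a cAMP response core in 20.8%, the RE1 part in 7.14% and the EGR site in 0.612%. These matches describe the letters of the windows and not the binding of any factor.

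Of 13 core neuronal release genes (Snap25, Vamp2, Stx1a, Syt1, Syn1, Syn2, Cplx1, Cplx2, Sv2a, Sv2b, Sv2c, Rims1 and Unc13a), 9 (69.2%) were called in neither genotype comparison, close to the 74.5% of all genes. Snap25 is the plasma membrane SNARE that supplies most of the neuronal SNAP. Snap25 had 1288, 1183 and 1213 CPM in R6/2-T and 1207, 1482 and 1203 CPM in R6/2-C, against 1116, 1219 and 1473 CPM in WT-T and 1343, 1207 and 1219.7 CPM in WT-C. The groups overlapped throughout. The 95% interval of its level was 85.6% to 125% of that in WT-C for R6/2-C and 80.2% to 117% of that in WT-T for R6/2-T.

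Vamp2 is the principal vesicle SNARE of forebrain neurons. Vamp2 had 623, 640.2 and 620.03 CPM in R6/2-T and 619, 553 and 610.2 CPM in R6/2-C, against 515, 512 and 636 CPM in WT-T and 512, 518 and 487 CPM in WT-C. Each R6/2-C library was above each WT-C library, and WT-T 3 overlapped the R6/2-T libraries. Its log2 changes of 0.23 ± 0.10 in R6/2-C over WT-C (adjusted p = 0.171) and 0.18 ± 0.10 in R6/2-T over WT-T (adjusted p = 0.219) did not pass. Vamp1 had 47.5, 54.6 and 44.5 CPM in R6/2-T and 36.8, 36.3 and 44.98 CPM in R6/2-C, against 60.00, 61.7 and 67.6 CPM in WT-T and 91.2, 58.8 and 46.1 CPM in WT-C. R6/2 libraries were below the WT libraries in each arm, but WT-C spread from 46.1 to 91.2 CPM. Vamp1 was called lower in R6/2-C at -0.73 ± 0.20 in R6/2-C over WT-C (adjusted p = 0.0466), and the call held in 4 of 21 alternatives (adjusted p up to 0.283), not without R6/2-T 1, R6/2-T 2, R6/2-T 3, R6/2-C 1, R6/2-C 2, R6/2-C 3, WT-T 1, WT-T 2, WT-T 3, WT-C 1 or WT-C 2. In the other arm the log2 change was -0.37 ± 0.20 in R6/2-T over WT-T (adjusted p = 0.219).

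Stx1a is a plasma membrane syntaxin of neuronal release. Stx1a had 27.9, 28.6 and 31.3 CPM in R6/2-T and 36.4, 29.1 and 32.6 CPM in R6/2-C, against 24.2, 26.5 and 31.1 CPM in WT-T and 26.4, 24.7 and 24.1 CPM in WT-C. The R6/2-C libraries were above the WT-C libraries, whereas the R6/2-T and WT-T libraries overlapped. Stx1a had 0.38 ± 0.11 in R6/2-C over WT-C (adjusted p = 0.0592) and 0.10 ± 0.11 in R6/2-T over WT-T (adjusted p = 0.554) on the log2 scale. The first was called in 6 of the 21 alternatives, among them DESeq2 (adjusted p = 0.0456), limma on log2(FPKM + 0.1) (adjusted p = 0.0397) and the fit without R6/2-C 2 (0.46 ± 0.12 in R6/2-C over WT-C, adjusted p = 0.0376).

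**Figure D4:**
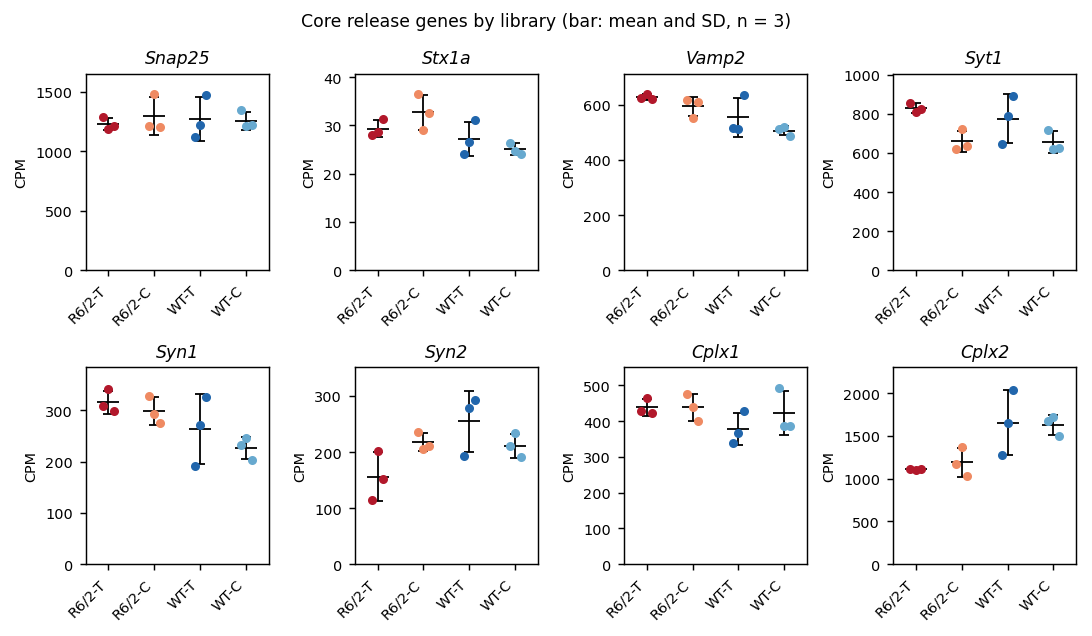
CPM of 8 core release genes, 1 point per library, with the mean and SD of each group of 3. Snap25, Syt1 and Cplx1 overlap between the genotypes, and the R6/2-T points of Cplx2 average 1111 CPM, below every WT point.

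Among the calcium sensors, Syt1, the main trigger of fast release in forebrain, was not called. Syt1 had 857, 809 and 823 CPM in R6/2-T and 618, 722 and 636 CPM in R6/2-C, against 646, 786 and 893 CPM in WT-T and 718, 622 and 623 CPM in WT-C. R6/2-T libraries were higher than R6/2-C libraries, and the groups of the other 3 comparisons overlapped. The genotype log2 changes were 0.01 ± 0.12 in R6/2-C over WT-C (adjusted p = 0.974) and 0.10 ± 0.12 in R6/2-T over WT-T (adjusted p = 0.609), and the 95% interval of the level was 83.5% to 121% of WT-C and 88.8% to 129% of WT-T.

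Syt9 had 12.9, 13.2 and 12.1 CPM in R6/2-T and 10.6, 14.1 and 10.03 CPM in R6/2-C, against 13.4, 16.7 and 15.05 CPM in WT-T and 20.2, 20.9 and 14.8 CPM in WT-C. Syt9, a fast calcium sensor of striatal and limbic neurons, was lower in R6/2-C than in every WT-C library, with R6/2-C 2 the highest of its group. It changed by -0.68 ± 0.16 in R6/2-C over WT-C (adjusted p = 0.0279) and -0.24 ± 0.16 in R6/2-T over WT-T (adjusted p = 0.32) on the log2 scale, and the call held in 15 of 21 alternatives (adjusted p up to 0.1), not without R6/2-C 1, R6/2-C 3, WT-C 1 or WT-C 2. Syt7, the slow and sensitive calcium sensor, ranged from 119 to 134 CPM in R6/2-T and 117 to 138 CPM in R6/2-C, against 142 to 225 CPM in WT-T and 143 to 167 CPM in WT-C. All R6/2 libraries were below all WT libraries, and the log2 changes were -0.28 ± 0.15 in R6/2-C over WT-C (adjusted p = 0.266) and -0.55 ± 0.15 in R6/2-T over WT-T (adjusted p = 0.0221), the second a call that held in 15 of 21 alternatives (adjusted p up to 0.0877), not without R6/2-T 1, R6/2-T 3, WT-T 2 or WT-T 3. Syt14, which does not bind calcium, was called higher in R6/2-T at 0.61 ± 0.17 in R6/2-T over WT-T (adjusted p = 0.0259), with 34.7 to 37.4 CPM in R6/2-T against 18.5 to 29.8 CPM in WT-T, and the call held in 15 of 21 alternatives (adjusted p up to 0.098), not without R6/2-T 1, R6/2-T 3, WT-T 1 or WT-T 2. Of the 16 synaptotagmins tested, 1 was higher and 3 lower in R6/2-C against WT-C, and 2 were higher and 3 lower in R6/2-T against WT-T. Of all genes, 9.09% were called in the first comparison and 22.6% in the second. The median log2 change of the synaptotagmins was -0.24 in R6/2-C over WT-C, beside -0.02 over all genes, and -0.26 in R6/2-T over WT-T, beside -0.05.

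The complexins split. Cplx1 and Cplx2 both bind assembled SNAREs in brain. Cplx1 had 428, 465 and 422 CPM in R6/2-T and 476, 440.1 and 399 CPM in R6/2-C, against 340.1, 366 and 428 CPM in WT-T and 492, 387 and 387 CPM in WT-C. Cplx2 had 1117, 1106 and 1109 CPM in R6/2-T and 1166, 1372 and 1031 CPM in R6/2-C, against 1281, 1646 and 2042 CPM in WT-T and 1673, 1721 and 1493 CPM in WT-C. Cplx1 overlapped between all groups, while the R6/2-T libraries of Cplx2 were close to each other (1111 ± 5.48 CPM, mean ± SD, n = 3) and below every WT library, and R6/2-C 2 reached into the WT-T range. Cplx2 changed by -0.45 ± 0.16 in R6/2-C over WT-C (adjusted p = 0.0992) and -0.58 ± 0.16 in R6/2-T over WT-T (adjusted p = 0.0239) on the log2 scale, and the call held in 15 of 21 alternatives (adjusted p up to 0.0764), not without R6/2-T 1, R6/2-T 2, R6/2-T 3, WT-T 2 or WT-T 3. For Cplx1 the 95% interval was 85.99% to 125% of WT-C and 96.05% to 140.1% of WT-T. Cplx3, the complexin of retinal ribbon synapses and deep cortex, was scarce, at 0.137 to 0.367 CPM in R6/2-T against 0.877 to 1.22 CPM in WT-T. It was called lower at -1.98 ± 0.53 in R6/2-T over WT-T (adjusted p = 0.021), and the call held in 17 of 21 alternatives (adjusted p up to 0.175), not without R6/2-T 1 or R6/2-T 2. In the other arm Cplx3 had 0.381 to 0.992 CPM in R6/2-C against 0.807 to 2.88 CPM in WT-C. There edgeR did not call it, and DESeq2 called it lower, at -1.52 in R6/2-C over WT-C (adjusted p = 0.028). The 10 cortical neuron markers summed to 37.04 to 38.9 FPKM in R6/2-T and 37.6 to 56.3 FPKM in WT-T. They summed to 47.7 to 53.5 FPKM in R6/2-C and 40.98 to 51.6 FPKM in WT-C. Their part in the Cplx3 result was not tested.

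Synapsins tether vesicles to each other in the reserve pool. Syn1 had 308, 342 and 299 CPM in R6/2-T and 329, 292 and 275 CPM in R6/2-C, against 192, 272 and 327 CPM in WT-T and 232, 246 and 204 CPM in WT-C. The R6/2-C libraries were above the WT-C libraries, and WT-T 3 overlapped R6/2-T. The log2 changes, 0.39 ± 0.17 in R6/2-C over WT-C (adjusted p = 0.162) and 0.26 ± 0.16 in R6/2-T over WT-T (adjusted p = 0.279), did not pass. Syn2 had 114, 202 and 152 CPM in R6/2-T and 236, 206 and 211 CPM in R6/2-C, against 192, 278 and 294 CPM in WT-T and 210.3, 234 and 190.5 CPM in WT-C. R6/2-T 1 and R6/2-T 3 were the lowest of the 12 libraries, and R6/2-T 2 lay above WT-T 1. Syn2 changed by 0.04 ± 0.20 in R6/2-C over WT-C (adjusted p = 0.922) and -0.71 ± 0.20 in R6/2-T over WT-T (adjusted p = 0.0273) on the log2 scale. The call held in 14 of 21 alternatives (adjusted p up to 0.105), not without R6/2-T 1, R6/2-T 3, WT-T 2 or WT-T 3. On the Cuffdiff fragments the log2 change was -0.36, and limma did not call it (adjusted p = 0.105). There R6/2-T had 8447 to 8536 scaled fragments, and the lowest libraries were WT-C 3 with 7974 and WT-T 1 with 8091.

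Sv2a, the SV2 protein of nearly all synapses and the binding site of the drug levetiracetam, was the member of its family that was called. Sv2a had 402, 428 and 393 CPM in R6/2-T and 407, 362 and 372 CPM in R6/2-C, against 286, 323 and 346 CPM in WT-T and 332, 292 and 268 CPM in WT-C. All R6/2 libraries were above all WT libraries. Sv2a changed by 0.36 ± 0.10 in R6/2-C over WT-C (adjusted p = 0.057) and 0.36 ± 0.10 in R6/2-T over WT-T (adjusted p = 0.0306) on the log2 scale, and the second call held in 15 of 21 alternatives (adjusted p up to 0.0957), not without R6/2-T 1, R6/2-T 2, R6/2-T 3, WT-T 1 or WT-T 2. Sv2c had 196, 188 and 200.5 CPM in R6/2-T and 133, 207 and 124 CPM in R6/2-C, against 184, 255 and 264 CPM in WT-T and 244, 205 and 228 CPM in WT-C. Sv2c, the family member most tied to the basal ganglia, was lowest in R6/2-C 1 and R6/2-C 3, while R6/2-C 2 lay among the WT libraries. Its log2 change was -0.55 ± 0.19 in R6/2-C over WT-C (adjusted p = 0.0948) and -0.27 ± 0.19 in R6/2-T over WT-T (adjusted p = 0.334), and without R6/2-C 2 the first became -0.82 ± 0.15 in R6/2-C over WT-C (adjusted p = 0.0114). DESeq2 (adjusted p = 0.0459) and limma on the Cuffdiff fragments (adjusted p = 0.0467) also called it with all libraries. Sv2b had 229, 188 and 99.5 CPM in R6/2-T and 81.3, 225 and 75.8 CPM in R6/2-C, against 67.4, 69.9 and 183 CPM in WT-T and 66.5, 166 and 88.6 CPM in WT-C. Sv2b, an SV2 form of many excitatory neurons, was high in single libraries of R6/2-C, WT-T and WT-C in the StringTie counts, with log2 changes of 0.25 ± 0.56 in R6/2-C over WT-C (adjusted p = 0.828) and 0.69 ± 0.56 in R6/2-T over WT-T (adjusted p = 0.414). The Cuffdiff columns did not show these high libraries, with 8347 to 10274 scaled fragments in R6/2-T and 9114 to 9802 in R6/2-C, against 6319 to 8266 in WT-T and 7398 to 7926 in WT-C. There limma called Sv2b higher in R6/2-T, at 0.38 on the log2 scale over WT-T (adjusted p = 0.0194).

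Among the priming proteins, the Unc13a relative Unc13b moved the other way in R6/2-T. Unc13b had 24.5, 28.6 and 26.6 CPM in R6/2-T and 14.01, 21.3 and 14.4 CPM in R6/2-C, against 11.5, 14.96 and 16.4 CPM in WT-T and 16.6, 11.9 and 16.5 CPM in WT-C. R6/2-T libraries were above all others, and R6/2-C 2 was the next highest. Unc13b changed by 0.14 ± 0.19 in R6/2-C over WT-C (adjusted p = 0.688) and 0.89 ± 0.19 in R6/2-T over WT-T (adjusted p = 0.00851) on the log2 scale, and the second call held in 20 of 21 alternatives (adjusted p up to 0.0762). Rims1 had 28.1, 30.8 and 27.9 CPM in R6/2-T and 34.7, 37.03 and 31.6 CPM in R6/2-C, against 20.1, 25.8 and 33.1 CPM in WT-T and 47.3, 44.3 and 41.5 CPM in WT-C. Rims1, an active zone scaffold that binds Rab3 and Unc13 proteins, was highest in WT-C. Its log2 change was -0.37 ± 0.15 in R6/2-C over WT-C (adjusted p = 0.159) and 0.14 ± 0.15 in R6/2-T over WT-T (adjusted p = 0.556). In the Cuffdiff columns Rims1 had 0 to 15.1 scaled fragments per library, so its values rest on the StringTie counts and the FPKM.

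Unc13d serves granule release in immune cells, as do Stx11 and Stxbp2, and all 3 were lower in R6/2-T. Stx11 had 0.320, 0.205 and 0.701 CPM in R6/2-T and 0.867, 2.04 and 3.12 CPM in R6/2-C, against 5.63, 3.99 and 1.62 CPM in WT-T and 1.08, 2.98 and 4.71 CPM in WT-C. Values were low throughout, highest in WT-T 1, and R6/2-T lay below every other library. Stx11 changed by -0.54 ± 0.66 in R6/2-C over WT-C (adjusted p = 0.65) and -3.19 ± 0.72 in R6/2-T over WT-T (adjusted p = 0.0113) on the log2 scale, a second call that held in 19 of 21 alternatives (adjusted p up to 0.0813), not without R6/2-T 1. Unc13d ranged from 0.719 to 1.15 CPM in R6/2-T and 1.17 to 4.64 CPM in R6/2-C, against 2.16 to 6.74 CPM in WT-T and 2.98 to 6.37 CPM in WT-C, and changed by -2.16 ± 0.53 in R6/2-T over WT-T (adjusted p = 0.0155), a call that held in 18 of 21 alternatives (adjusted p up to 0.113), not without R6/2-T 1 or WT-T 1. Stxbp2 changed by -0.50 ± 0.12 in R6/2-T over WT-T (adjusted p = 0.0151), a call that held in 18 of 21 alternatives (adjusted p up to 0.124), not without R6/2-T 1 or R6/2-T 2. The 6 microglial markers, 4 of them called lower in R6/2-T against WT-T and 0 in R6/2-C against WT-C, summed to 125 to 153 FPKM in R6/2-T and 145 to 275 in R6/2-C, against 152 to 350 in WT-T and 201 to 316 in WT-C. WT-T 1 had the highest sum and WT-T 3 the lowest of their group, as for Stx11 and Unc13d. Stxbp2 did not follow that order, with 34.3, 26.7 and 27.1 CPM in WT-T and its lowest value in WT-T 2. The part of microglia in these results was not tested.

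The remaining syntaxins and SNARE partners of general membrane traffic held several of the other calls. Stx3 had 16.6, 14.9 and 14.8 CPM in R6/2-T and 12.9, 14.8 and 13.7 CPM in R6/2-C, against 17.5, 17.5 and 20.4 CPM in WT-T and 20.96, 18.8 and 18.4 CPM in WT-C. Stx3, a plasma membrane syntaxin of epithelia and ribbon synapses, was lower in all R6/2 than in all WT libraries. It changed by -0.49 ± 0.11 in R6/2-C over WT-C (adjusted p = 0.0187) and -0.26 ± 0.11 in R6/2-T over WT-T (adjusted p = 0.0993) on the log2 scale, and the first call held in 16 of 21 alternatives (adjusted p up to 0.0798), not without R6/2-C 1, R6/2-C 3 or WT-C 1. Stx6 had 102, 73.3 and 95.9 CPM in R6/2-T and 71.97, 79.3 and 69.2 CPM in R6/2-C, against 63.6, 56.8 and 70.6 CPM in WT-T and 64.3, 60.3 and 61.4 CPM in WT-C. Stx6, a syntaxin of the trans-Golgi network, was highest in R6/2-T 1 and R6/2-T 3. It changed by 0.25 ± 0.12 in R6/2-C over WT-C (adjusted p = 0.249) and 0.51 ± 0.12 in R6/2-T over WT-T (adjusted p = 0.0149), the second a call that held in 17 of 21 alternatives (adjusted p up to 0.318), not without R6/2-T 1, R6/2-T 3 or WT-T 2. On the Cuffdiff fragments it was 0.11 with an adjusted p of 0.318. Stx4a, the syntaxin of insulin-regulated transport, was called lower in R6/2-T at -0.38 ± 0.12 in R6/2-T over WT-T (adjusted p = 0.0385), and the call held in 10 of 21 alternatives.

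Snap47 had 135, 138 and 133 CPM in R6/2-T and 159, 128 and 131 CPM in R6/2-C, against 137, 107 and 117 CPM in WT-T and 103, 104 and 88.2 CPM in WT-C. Snap47, a relative of Snap25 that is not restricted to neurons, was lowest in the WT-C libraries, and WT-T 1 overlapped the R6/2-T libraries. It changed by 0.50 ± 0.12 in R6/2-C over WT-C (adjusted p = 0.0249) and 0.17 ± 0.12 in R6/2-T over WT-T (adjusted p = 0.322) on the log2 scale, and the first call held in 13 of 21 alternatives (adjusted p up to 0.0911), not without R6/2-T 3, R6/2-C 1, R6/2-C 3, WT-C 1, WT-C 2 or WT-C 3. On the Cuffdiff fragments limma called Snap47 higher in R6/2-T, at 0.31 over WT-T (adjusted p = 0.0407). There WT-T 1 was the lowest of its group, with 5939 scaled fragments, against 6759 and 6834. Vamp7 had 35.7, 29.9 and 33.6 CPM in R6/2-T and 29.1, 21.6 and 34.4 CPM in R6/2-C, against 18.3, 20.3 and 22.2 CPM in WT-T and 23.1, 21.8 and 17.7 CPM in WT-C. Vamp7, the VAMP of late endosomes and lysosomes, was highest in R6/2, although R6/2-C 2 lay within the WT range. Vamp7 changed by 0.44 ± 0.16 in R6/2-C over WT-C (adjusted p = 0.116) and 0.70 ± 0.16 in R6/2-T over WT-T (adjusted p = 0.0118), and the second call held in 19 of 21 alternatives (adjusted p up to 0.0579), not without R6/2-T 1.

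Stxbp4 had 38.7, 44.6 and 44.2 CPM in R6/2-T and 26.1, 42.2 and 25.2 CPM in R6/2-C, against 22.2, 26.4 and 26.6 CPM in WT-T and 27.9, 24.1 and 24.5 CPM in WT-C. Stxbp4, which binds Stx4a and is known from insulin-regulated transport, was highest in R6/2-T and in R6/2-C 2. It changed by 0.29 ± 0.18 in R6/2-C over WT-C (adjusted p = 0.346) and 0.76 ± 0.18 in R6/2-T over WT-T (adjusted p = 0.0118), and the second call held in 21 of 21 alternatives (adjusted p up to 0.0449). Of the 12 syntaxins outside release, 2 were higher and 1 lower in R6/2-C against WT-C, and 3 higher and 2 lower in R6/2-T against WT-T. For the 7 other syntaxin-binding proteins the counts were 1 higher in the first, and 2 higher and 1 lower in the second. The shares over all genes were 9.09% in the first and 22.6% in the second.

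Several of these genes overlap a neighbour on the opposite strand in the annotation, and no source used here says whether the counting was by strand. Syt2 overlaps Ppp1r12b over 7936 bases, Vamp1 overlaps Tapbpl over 7928, Syn2 overlaps Timp4 over 10314, Snap47 overlaps Jmjd4 over 1142 and Unc13a overlaps Colgalt1 over 495. Stx18 overlaps Nsg1 over 574 bases. If reads were counted without strand, the reads of such pairs cannot be told apart. On the same strand, Sv2c overlaps AC153134.1 over 2161 bases and Vamp3 overlaps Camta1 over 10664. Counting by strand alone would not separate the reads of those pairs.

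Over the 6 R6/2 and the 6 WT libraries, 11 of the 67 genes (16.4%) did not overlap between genotypes, against 12.2% of all genes. Stx12, Stx18, Stx7, Sv2a and Syt4 were above in every R6/2 library (7.22% of all genes), and Stx3, Syt12, Syt2, Syt7 and Unc13a were among those below (4.95%). The balance within 6 pairs of close relatives is given as the ratio of their FPKM. These pairs were chosen after their values had been seen, so the ratios are given with no test. Unc13b over Unc13a was 0.255 to 0.289 in R6/2-T and 0.125 to 0.189 in R6/2-C, against 0.0874 to 0.122 in WT-T and 0.0590 to 0.108 in WT-C. This ratio was thus higher in every R6/2 library.

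The other 5 ratios were lower in every R6/2 library. Cplx2 over Cplx1 was 1.06 to 1.38 in R6/2, against 1.51 to 2.12 in WT. Syn2 over Syn1 was 0.401 to 0.517 in R6/2-T and 0.619 to 0.681 in R6/2-C, against 0.785 to 0.902 in WT-T and 0.798 to 0.839 in WT-C. Sv2c over Sv2a was 0.156 to 0.272 in R6/2, against 0.304 to 0.403 in WT. For the scarcer partners, Vamp1 over Vamp2 was 0.0453 to 0.0636 in R6/2 and 0.0694 to 0.134 in WT, and Syt2 over Syt1 was 0.0261 to 0.0415 in R6/2 and 0.0508 to 0.0895 in WT.

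**Figure D5:**
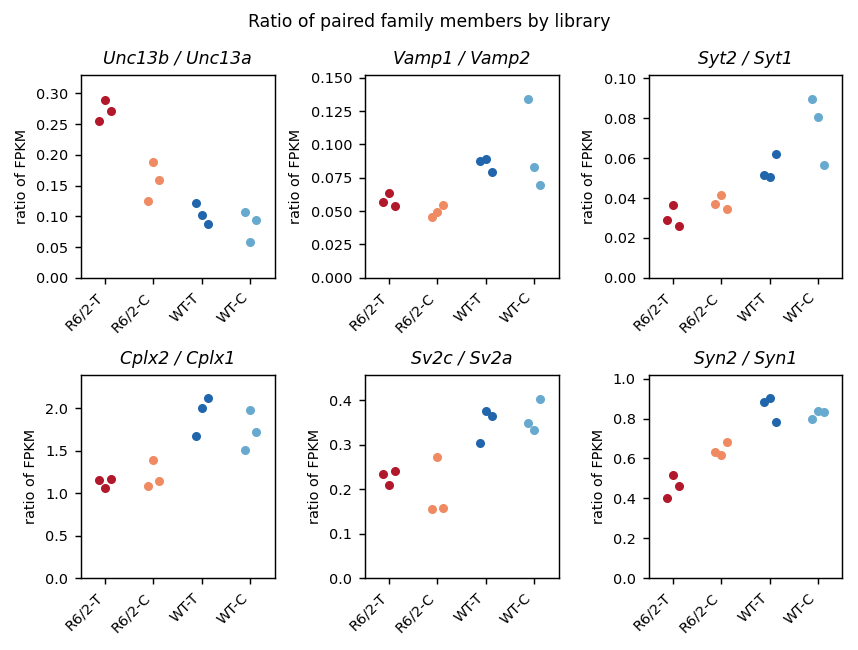
Ratio of the FPKM of 2 members of a family in each library, 1 point per library and 3 libraries per group. In every panel the R6/2 points and the WT points do not overlap; Unc13b over Unc13a is highest in R6/2-T, at 0.255 to 0.289.

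None of the 67 genes passed the threshold for the shRNA against TRAX in edgeR. In R6/2-T against R6/2-C, 0 were called, against 0.0682% of all genes (0.0512% higher and 0.0171% lower), and 16 of the 67 had an unadjusted p under 0.05, beside 19.2% of all genes. In WT-T against WT-C, 0 were called, against 0.00426% of all genes, and 5 had an unadjusted p under 0.05, beside 6.45% of all genes. DESeq2 called 5 of the 67 in the first comparison, against 8.53% of all genes it tested, with Stxbp5, Stxbp5l and Unc13b higher and Stx11 and Unc13d lower. It called 1, Rims1, lower in the second, against 0.404%. By edgeR, the genes with the smallest p in the first comparison were Stxbp5 at 0.43 ± 0.10 in R6/2-T over R6/2-C (adjusted p = 0.075), Unc13b at 0.68 ± 0.19 in R6/2-T over R6/2-C (adjusted p = 0.112) and Stx11 at -2.29 ± 0.70 in R6/2-T over R6/2-C (adjusted p = 0.133). In the second they were Rims1 at -0.75 ± 0.15 in WT-T over WT-C (adjusted p = 0.306), Rims2 at -0.44 ± 0.17 in WT-T over WT-C (adjusted p = 0.711) and Snap47 at 0.29 ± 0.12 in WT-T over WT-C (adjusted p = 0.722). Rims2 is a RIM scaffold like Rims1.

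Calls in the R6/2 arm turned on R6/2-C 2, the library that stood apart from its group in choroid plexus markers. In R6/2-C 2, Stxbp5l, a second tomosyn, had 38.2 CPM, against 17.9 and 16.4 CPM in the other R6/2-C libraries. In the Cuffdiff columns it had 1539 scaled fragments in R6/2-C 2, against 759.97 and 681 in the others. Stxbp6, a protein that binds SNAREs through a VAMP-like motif, had 16.7 CPM in R6/2-C 2, against 60.8 and 57.8 CPM. Its FPKM showed the same gap, with 3.47 in R6/2-C 2, against 13.2 and 13.0. In the Cuffdiff columns it had 2672 scaled fragments, against 2887 and 2724, so the gap was absent there. Without that library, 5 genes were called higher in R6/2-T than in R6/2-C, against 4.93% of all genes. They were Stxbp5l at 1.46 ± 0.24 in R6/2-T over R6/2-C (adjusted p = 0.0126), Unc13b at 0.90 ± 0.18 in R6/2-T over R6/2-C (adjusted p = 0.0236), Stxbp4 at 0.73 ± 0.12 in R6/2-T over R6/2-C (adjusted p = 0.0115), Sv2c at 0.60 ± 0.15 in R6/2-T over R6/2-C (adjusted p = 0.0475) and Stxbp5 at 0.47 ± 0.11 in R6/2-T over R6/2-C (adjusted p = 0.0372). Without WT-T 1, which belongs to neither group, 1 gene was called, Stxbp5, with an adjusted p of 0.0405, beside 318 of all genes. The choroid plexus markers of R6/2-C 2 were above those of the other 11 libraries, and their part in these differences was not tested.

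No gene passed the test of a different response to the shRNA in the genotypes. For the interaction, the change with the shRNA in R6/2 less the change in WT, 0 of 67 were called by edgeR, against 0.00426% of all genes, and 0 by DESeq2, against 0.751%. By edgeR 9 had an unadjusted p under 0.05, beside 11.7% of all genes. The smallest p values belonged to Syt5 at -0.77 ± 0.20 in the interaction (adjusted p = 0.346), Unc13c at 0.71 ± 0.23 in the interaction (adjusted p = 0.353) and Stx11 at -2.64 ± 0.96 in the interaction (adjusted p = 0.371) on the log2 scale. Syt5 had 89.6, 102 and 105 CPM in R6/2-T and 165, 115 and 125 CPM in R6/2-C, against 108, 127 and 139 CPM in WT-T and 93.3, 109 and 96.3 CPM in WT-C. R6/2-T values of Syt5, a synaptotagmin of dense-core vesicles, lay below R6/2-C, and WT-T 2 and WT-T 3 lay above every WT-C library. Unc13c had 407, 378 and 354 CPM in R6/2-T and 263, 355 and 254 CPM in R6/2-C, against 267, 335 and 367 CPM in WT-T and 471, 377 and 362 CPM in WT-C. Unc13c, an UNC13 protein best known from cerebellum, was higher in R6/2-T 1 and R6/2-T 2 than in every R6/2-C library, and lower in WT-T 1 and WT-T 2 than in every WT-C library.

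The authors' deposited table of 626 neuron-enriched genes, which compares R6/2-T with R6/2-C, holds 8 of the 70 genes. In the authors' deposited table, Rims3 had a log2 ratio of 0.55 (q = 0.0085), Stxbp5 of 0.39 (q = 0.0056), Stxbp5l of 0.89 (q = 0.0236) and Syt14 of 0.50 (q = 0.0104). The authors' deposited table gives negative log2 ratios for Cplx3 (-1.51), Syn2 (-0.45), Syt5 (-0.46) and Syt6 (-0.53), with q values between 0.109 and 0.253.

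Of 55 other presynaptic genes, among them vesicle, active zone and endocytosis genes, 2 were higher and 2 lower in R6/2-C against WT-C, where 4.87% of all genes were higher and 4.22% lower. The median log2 change of the 55 was -0.03, beside -0.02 over all genes. Syp had 748, 791 and 769 CPM in R6/2-T and 792, 654 and 777 CPM in R6/2-C, against 488, 573 and 614 CPM in WT-T and 483, 414 and 411 CPM in WT-C. Syp encodes synaptophysin, an abundant vesicle membrane protein, and no R6/2 library overlapped a WT library. It changed by 0.76 ± 0.12 in R6/2-C over WT-C (adjusted p = 0.00382) and 0.46 ± 0.11 in R6/2-T over WT-T (adjusted p = 0.0153) on the log2 scale. Ppfia2, a liprin of the active zone, was also higher, at 0.46 ± 0.12 in R6/2-C over WT-C (adjusted p = 0.0373). Slc18a3, the vesicular acetylcholine transporter, and Dnm2, a dynamin of all cells, were lower, at -0.65 ± 0.17 in R6/2-C over WT-C (adjusted p = 0.0367) and -0.31 ± 0.07 in R6/2-C over WT-C (adjusted p = 0.0292). In R6/2-T against WT-T, 10 of the 55 were higher and 2 lower, where 11.5% of all genes were higher and 11.1% lower, with a median of 0.08, beside -0.05 over all genes. The same 4 genes were among these, and Amph, Scamp1, Napg, Synj1, Rab27b, Dnm3, Cadps and Erc1 were higher by log2 changes of 0.44 to 0.60. By edgeR, 0 of the 55 were called in either shRNA comparison or in the interaction, with an unadjusted p under 0.05 for 17 in R6/2-T against R6/2-C, 6 in WT-T against WT-C and 3 for the interaction. DESeq2 called 6, 0 and 0 of them, against 8.53%, 0.404% and 0.751% of all genes it tested.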

How the data were processed

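Total RNA of 12 striatal libraries was analysed. Per the labels' protocols, libraries were made with TruSeq Stranded Total RNA Gold from RNA extracted with TRIzol or miRNeasy, but no source used here ties a method to a library. Per the submitters' processing notes, bcl2fastq 2.20, HISAT2 (no version given) and the build GRCm38 were used. Per the file headers, the authors' deposited gene table gives estimated counts by StringTie. They were whole numbers, so that rounding changed nothing, but they are not numbers of independent reads. The authors also deposited a signal headed Cuffdiff per the file headers, in which fragments are scaled between libraries, and FPKM, for which no tool is named. A deposited comparison of R6/2-T with R6/2-C gives a log2 ratio, a p-value and a q-value per gene. A further 12 columns headed Pearson were not used.

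Tests used edgeR 4.0.16 (R 4.3.3, TMM scaling, default expression filter by group, robust quasi-likelihood F test, two-sided) in 1 model of 4 group means over the 12 libraries. Benjamini-Hochberg adjustment ran over the 23453 genes tested, and a gene was called at an adjusted p under 0.05. CPM are these counts scaled by library size and TMM factor and are used between libraries, and FPKM are used between genes. Log2 changes are given with their SE, intervals are 95%, and both cover the spread between libraries and counting error. The design had assumed plain read counts. Log counts correlated at 0.962 to 0.980 within groups, and no pair of libraries agreed within sampling noise (chi-square per degree of freedom 74.6 to 486). The calculations were tested on simulated data. Alternatives used RLE scaling, no filter, DESeq2 1.42.0, only the 2 groups compared, a replicate block, limma 3.58.1 on log2(FPKM + 0.1 or 1), and each library left out. Chosen after seeing the data were limma on log2(scaled fragments + 1) and the ratios of paired genes. The genes, lists, naming rule and tests were chosen with earlier results of these data known. The rule for naming gave values by library for the 15 core genes (2 of them are not reported here) and for 16 of the called genes with the smallest adjusted p, and those of the 3 smallest p where a comparison called no gene.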

Additional observations from a re-analysis of the deposited data

How the results depend on the processing

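The 11 genes called in R6/2-C against WT-C became 19 with DESeq2, 2 with only the 2 groups compared and 7 with limma on log2(FPKM + 0.1) without a filter. Over all genes, the 2131 calls became 3436, 454 and 922 in the same order. With the other 6 settings, 9 to 16 of these genes were called, beside 1199 to 2779 of all genes. The 21 called in R6/2-T against WT-T became 9 with limma on log2(FPKM + 0.1) without a filter and numbered 17 to 24 with the other 8 settings. Over all genes, the 5304 calls there became 2442 and numbered 4447 to 6648. In the shRNA comparisons DESeq2 called 5 genes in R6/2-T against R6/2-C and 1 in WT-T against WT-C, where the other settings with all libraries called 0. Of all genes it tested, DESeq2 called 8.53% in the first and 0.404% in the second. Leaving out 1 library in turn gave 2 to 16 genes in R6/2-C against WT-C, 7 to 24 in R6/2-T against WT-T, 0 to 5 in R6/2-T against R6/2-C and 0 to 0 in WT-T against WT-C and for the interaction. Over all genes, the same fits called 803 to 2733 in R6/2-C against WT-C. They called 2760 to 5473 of all genes in R6/2-T against WT-T and 2 to 1197 in R6/2-T against R6/2-C. The cause of these moves was not tested. No called gene changed sign under any of the 21 alternatives, and 137 of 3322 values that were called in neither analysis did. Stx12, Stx7, Stxbp4, Stxbp5, Syt12 and Syt4 were called in R6/2-T against WT-T under all 21. Libraries with the same replicate number correlated at -0.213 to 0.203 in their deviations from the group means. Libraries of different number were not compared in this way, so whether the numbers pair libraries was not settled. With the replicate block, 9 genes were called in R6/2-C against WT-C, 17 in R6/2-T against WT-T and 0 in the other 3 tests. Over all genes it called 1199 in the first and 4464 in the second. A planned edgeR fit on fragments recovered from the Cuffdiff columns was not run, because the columns did not give whole fragments. On the scaled fragments themselves, limma called 16 and 24 of 65 genes in the genotype comparisons, beside 2779 and 6022 of all genes. With 3 libraries per group and estimated counts in place of reads, changes of scarce genes such as Cplx3, Stx11 and Unc13d are the least certain. Whole tissue does not separate cell types.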
